A study of Mus musculus with 4 samples.

Results

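Aminoacyl-tRNA synthetases are the enzymes that join each amino acid to its transfer RNA. The genes described here were the 36 synthetase genes of a fixed list of symbols, out of 17039 genes in the expression table. Symbols ending in 2 were taken as the mitochondrial set, which held 16 genes. The other 20 genes made up the cytosolic set. The rule itself uses no expression value. By symbol 35 were found, and Mars1, the methionine enzyme, was found by its NCBI Gene number (216443) under the deposited symbol Mars. All 36 had enough counts in the libraries to be tested. Tarsl2, a further synthetase gene in the table, falls outside the list.

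RNA was sequenced from splenic T cells of 4 C57BL/6 mice, with 2 libraries in each group, replicates 1 and 3, and 1 mouse for each library. One group had received a recombinant adeno-associated virus (AAV) carrying interleukin-27 (called AAV-IL-27), and the other a control virus (AAV-ctrl). The virus was given into muscle about a month before the cells were separated with magnetic beads (MACS). The series title speaks of CD8+ cells and the cell type label of splenic T cells, and the sources used here do not give the age of the mice, the promoter in the virus or what the control virus carries.

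Every cell needs 1 synthetase activity for each amino acid in the cytosol and a second set for protein synthesis inside mitochondria. Both sets are encoded in the nucleus. Most are the product of separate genes, while Kars and Gars each give rise to a cytosolic and a mitochondrial enzyme. The enzymes fall into class I and class II, which differ in the fold of the catalytic domain. A number of cytosolic synthetases sit in a multisynthetase complex held together by the scaffold proteins Aimp1, Aimp2 and Eef1e1. Many cytosolic synthetase genes are known targets of ATF4, the transcription factor of the integrated stress response. Wars, the tryptophan enzyme, is also a textbook interferon-gamma-inducible gene. IL-27 is a cytokine of the IL-12 family that acts on T cells through a receptor linked to JAK kinases.

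ATF4 binds a composite C/EBP-ATF element (CARE), searched here as TGATGNAA on both strands of the RefSeq promoter windows (build GRCm38.p6), each running from 250 bases before a gene's start to 50 after it. Of the 36 genes, 27 had such a window, 13 of them cytosolic and 14 mitochondrial. Wars, Hars and Rars were among the genes without a window, so no motif was searched for them. The letters were found in 5 of the 13 cytosolic windows (38.5%) and in 0 of the 14 mitochondrial windows. Among tested genes with a window, 3.00% of 10278 held them, and 4.51% of all 27025 windows did. A match from each of the 5 genes is shown, and Aars held another, 112 bases before the start. The other cytosolic windows and all mitochondrial ones lacked the letters. Each is 30 bases on the strand of the gene, with the match in capitals, and TTNCATCA is the same element read on the other strand.
Yars, chr4:129189895-129189924, plus strand, 3 bases after the start: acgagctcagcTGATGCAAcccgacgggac
Gars, chr6:55037960-55037989, plus strand, 30 bases before the start: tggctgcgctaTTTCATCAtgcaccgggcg
Aars, chr8:111033840-111033869, plus strand, 9 bases after the start: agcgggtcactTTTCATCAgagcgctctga
Iars, chr13:49682126-49682155, plus strand, 7 bases after the start: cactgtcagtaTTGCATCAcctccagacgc
Tars, chr15:11399655-11399684, minus strand, 15 bases before the start: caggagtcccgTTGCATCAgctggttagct

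The distances are those of the first base of the match from the start. Of the 250 bases before the start, annotated exons cover 202 in Aars, 218 in Yars, 30 in Iars and 7 in Tars. The start used for Aars lies inside the annotated span of the gene. For Gars, the glycine enzyme, the whole stretch of 250 bases before the start (chr6:55037751-55038000, plus strand) holds no annotated exon and is given as the context of its match.
Gars: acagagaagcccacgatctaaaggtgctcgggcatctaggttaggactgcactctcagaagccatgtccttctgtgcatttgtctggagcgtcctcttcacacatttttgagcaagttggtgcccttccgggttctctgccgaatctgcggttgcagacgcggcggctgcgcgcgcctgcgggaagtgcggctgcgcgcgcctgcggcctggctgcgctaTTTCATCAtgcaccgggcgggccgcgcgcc

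Other motifs were searched in the same windows on both strands. The STAT element (GAS, TTCNNNGAA) was found in 2 of 13 cytosolic windows, Aars and Kars, and in 1 of 14 mitochondrial windows, Nars2, against 8.52% of tested genes. The interferon-stimulated response element (ISRE), searched as its paired GAAA core, was found in 1 cytosolic window, Qars, and no mitochondrial one, against 3.97%. The E-box CACGTG, bound by MYC among other factors, was found in the cytosolic windows of Aars, Farsb, Iars and Tars and in the mitochondrial window of Ears2, against 11.5%. These matches describe the letters in the windows and do not show binding. Aars, Iars and Tars held both a CARE and an E-box match. Matches of different motifs overlapped in 0 member windows.

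The libraries held between 15742476 and 16182426 counts, and 12887 genes were tested. Levels between genes are given as FPKM, a value per length of transcript and per library size. In the control mice, members of the cytosolic set ranged from 11.4 (Cars, cysteine) to 73.3 FPKM (Vars, valine), with a median of 30.02. Members of the mitochondrial set ranged from 4.47 (Pars2, proline) to 22.7 FPKM (Tars2, threonine), with a median of 7.69. The order of levels was therefore mostly cytosolic above mitochondrial, but not throughout. Cars2 lay above its cytosolic counterpart in all 4 libraries, with ratios of Cars to Cars2 of 0.813 and 0.904 in AAV-IL-27 and 0.800 and 0.730 in AAV-ctrl. In all 4 libraries Iars2, the mitochondrial isoleucine enzyme, lay near its cytosolic counterpart. It had 22.3 and 20.9 against 21.8 and 22.6 FPKM for Iars in AAV-IL-27, and 22.3 and 22.3 against 20.7 and 22.5 in AAV-ctrl. In the annotation 24.2% of the exon bases of Iars2 are shared with other genes, so its level may include reads of theirs.

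**Figure D1:**
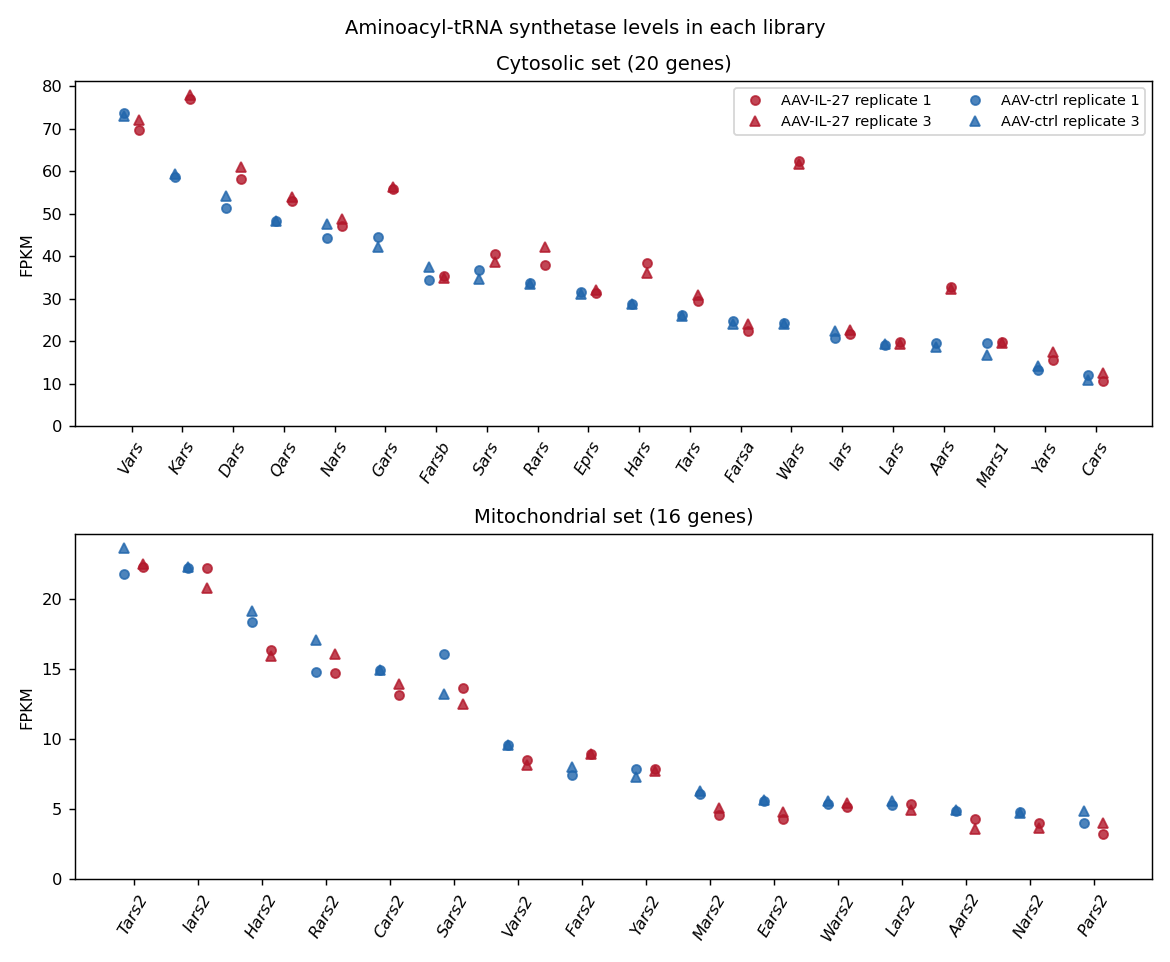
FPKM (vertical axis, linear from 0) of each synthetase gene in each of the 4 libraries, with the 20 cytosolic genes above and the 16 mitochondrial genes below, ordered by their mean in AAV-ctrl; circles are replicate 1, triangles replicate 3, red AAV-IL-27 and blue AAV-ctrl. Wars stands at 62.3 and 61.6 FPKM in AAV-IL-27 against 24.2 and 24.0 in AAV-ctrl, and the mitochondrial genes lie below 24 FPKM.

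Cytosolic synthetase transcripts were higher in the bulk T cell samples of AAV-IL-27 mice for 11 of 20 genes and lower for none. Wars and Aars, the alanine enzyme, led the rises. Of the 16 mitochondrial genes, Fars2 (phenylalanine) was higher and Ears2 (glutamate), Hars2 (histidine) and Mars2 (methionine) were lower. A gene was called higher or lower at an adjusted p below 0.05 in edgeR's quasi-likelihood test, adjusted over all genes tested. In that test 39.0% of all genes were called, 21.3% higher and 17.7% lower, so that the 11 of 20 cytosolic genes stood above the share for higher calls, while the 1 higher and 3 lower of 16 mitochondrial genes lay below and near the shares for their directions. The median log2 fold change was 0.20 in the cytosolic set and -0.09 in the mitochondrial set, against -0.01 over all genes tested. Whether the sets differ was not tested, since the genes of a set are not independent samples. In CPM, the values of the groups did not overlap for 16 of 20 cytosolic and 11 of 16 mitochondrial genes, where 71.5% of all genes did not.

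Summed over the set, cytosolic synthetase counts made up 0.221% and 0.224% of each AAV-IL-27 library and 0.191% of each AAV-ctrl library. Without Wars the shares were 0.203% and 0.207% against 0.184% in both controls, so the groups remained apart. The mitochondrial set made up 0.0416% and 0.0408% in AAV-IL-27 and 0.0444% and 0.0453% in AAV-ctrl. Here the control libraries were the higher ones, by a small margin. In summed FPKM the cytosolic set reached 786 ± 10.4 against 666 ± 0.792 (SD, n = 2 in each group), and the mitochondrial set 159 ± 0.354 against 171 ± 2.67 (SD, n = 2). Since these are bulk samples, fewer cells of a type and less RNA per cell cannot be told apart.

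**Figure D2:**
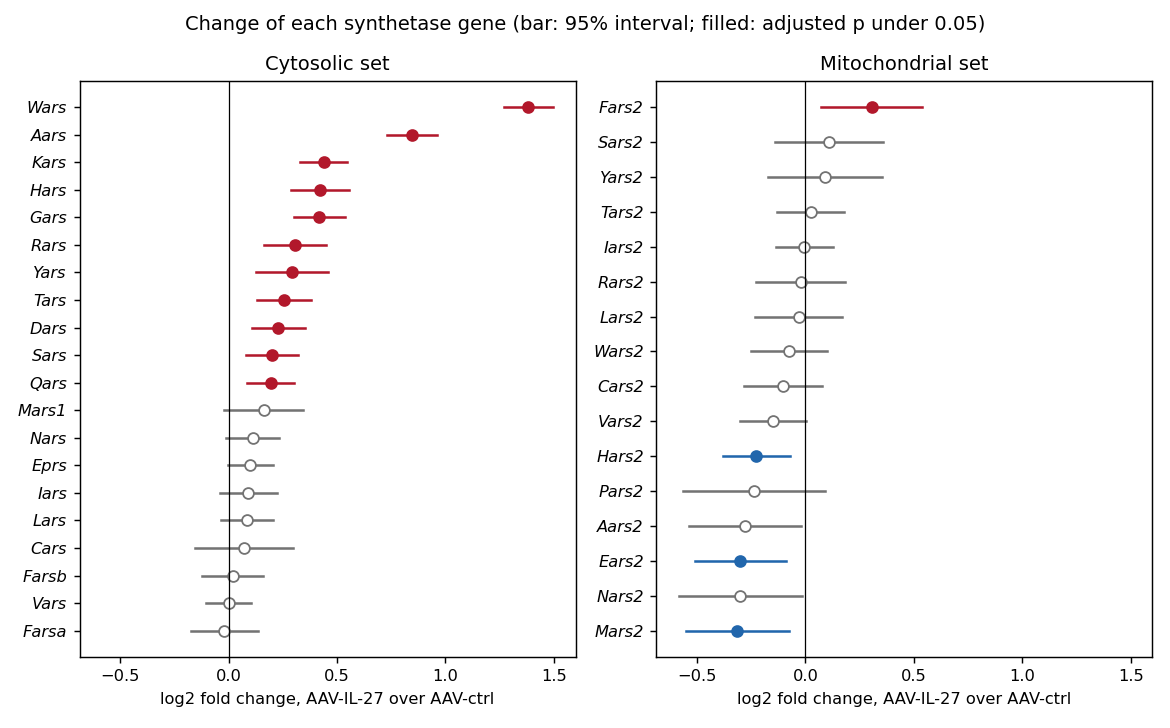
Log2 fold change (horizontal axis) of each cytosolic gene (left) and mitochondrial gene (right) between AAV-IL-27 and AAV-ctrl, 2 libraries in each group; bars are 95% intervals, filled points passed the adjusted threshold, red higher and blue lower. Wars (1.38) and Aars (0.85) stand apart from the other 18 cytosolic genes, whose values run from -0.02 to 0.44, and the mitochondrial values run from -0.31 to 0.31.

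Wars (NCBI Gene 22375, chr12:108860030-108894175) encodes the cytosolic class I enzyme that charges tryptophan. In AAV-IL-27 it had 2804 counts in replicate 1 and 2735 in replicate 3, against 1085 and 1064 in the controls, or 62.3 and 61.6 against 24.2 and 24.0 FPKM. Both AAV-IL-27 libraries lay far above both controls, and the libraries within each group were close together. The means were 62.0 ± 0.481 and 24.1 ± 0.148 FPKM (SD, n = 2), a 2.61-fold rise (log2 fold change 1.38, SE 0.050, 95% interval 1.27 to 1.496, adjusted p = 1.76e-07, edgeR). Among the 12887 tested genes its log2 fold change ranked 471 from the top. In level, Wars ranked 14 of the 36 synthetases in the controls and 3 in AAV-IL-27, behind Kars and Vars. Its share of the cytosolic set's counts was 7.89% and 7.54% in AAV-IL-27 and 3.60% and 3.54% in AAV-ctrl. Wars shares no exon bases with another annotated gene.

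The mitochondrial tryptophan enzyme Wars2 had 391 and 394 counts in AAV-IL-27 and 416 and 421 in AAV-ctrl. Its log2 fold change was -0.08 (SE 0.077, adjusted p = 0.474, edgeR) and did not pass the test. The ratio of Wars to Wars2 in FPKM was 11.98 and 11.27 in AAV-IL-27 against 4.51 and 4.27 in AAV-ctrl. The log2 fold changes of the cytosolic and mitochondrial gene differed by 1.46, the widest gap of the 16 pairs.

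Of 170 genes in the pathway lists, the 5 whose log2 fold change was nearest to that of Wars were Gbp5 (1.36), Irgm1 (1.34), Asns (1.51), Rrm1 (1.18) and Gbp3 (1.58). Gbp5, Irgm1 and Gbp3 are interferon-inducible GTPases, Asns is asparagine synthetase and a known ATF4 target, and Rrm1 is a subunit of ribonucleotide reductase. The likeness is in size of change only, over 4 libraries.

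Aars (chr8:111027778-111055569), a class II enzyme, had 1883 and 1896 counts in AAV-IL-27 and 1076 and 1049 in AAV-ctrl. In FPKM these were 32.7 and 32.2 against 19.5 and 18.8, with no overlap and little spread. Its rise was 1.80-fold (log2 fold change 0.85, SE 0.051, adjusted p = 2.82e-06, edgeR). In the annotation 14.3% of its exon bases are shared with Exosc6, an exosome subunit. Exosc6 itself had a log2 fold change of -0.10 (SE 0.12, adjusted p = 0.550, edgeR). The alanine pair was the second widest, with an FPKM ratio of Aars to Aars2 of 7.54 and 8.94 in AAV-IL-27 against 4.00 and 3.76 in AAV-ctrl.

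Kars, Hars and Gars, the class II enzymes for lysine, histidine and glycine, rose by similar amounts. Kars, a member of the complex, had 76.9 and 77.9 FPKM in AAV-IL-27 and 58.6 and 59.4 in AAV-ctrl, a log2 fold change of 0.44 (SE 0.047, adjusted p = 0.000112, edgeR). Gars had 55.8 and 56.2 against 44.6 and 42.2 FPKM, a log2 fold change of 0.42 (SE 0.051, adjusted p = 0.000251, edgeR). For both genes each AAV-IL-27 library exceeded each control. Hars had 38.3 and 36.01 against 28.7 and 28.8 FPKM, a log2 fold change of 0.42 (SE 0.060, adjusted p = 0.000608, edgeR), again without overlap. With Wars and Aars, these were the 5 genes that passed the test under each of the 11 alternative settings. Kars and Gars also supply the mitochondrial enzymes for their amino acids, and gene counts cannot separate the forms.

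A further 6 cytosolic genes rose by less. Rars (arginine) had 1302 and 1457 counts in AAV-IL-27 and 1137 and 1120 in AAV-ctrl, with a log2 fold change of 0.31 (adjusted p = 0.00482, edgeR). Yars (tyrosine) had 683 and 750 against 585 and 598, with 0.29 (adjusted p = 0.0114). Tars (threonine) had 1255 and 1319 against 1099 and 1082, with 0.26 (adjusted p = 0.00583). In these 3 genes replicate 3 was the higher of the AAV-IL-27 libraries, and no control reached either of them. Dars (aspartate) had a log2 fold change of 0.23 (adjusted p = 0.00917), Sars (serine) 0.20 (adjusted p = 0.0154) and Qars (glutamine) 0.19 (adjusted p = 0.0110). The calls of these 6 genes depended on single libraries, and DESeq2 did not call Yars, Sars or Qars. Without AAV-ctrl replicate 1, the adjusted p was 0.0538 for Rars, 0.0993 for Yars, 0.0591 for Tars, 0.125 for Dars, 0.0560 for Sars and 0.101 for Qars. Without AAV-ctrl replicate 3 it was 0.0602 for Rars, 0.0678 for Yars, 0.0685 for Tars, 0.168 for Sars and 0.0955 for Qars, and without AAV-IL-27 replicate 3 it was 0.0553 for Yars. With 1 control library left out, the remaining one is assumed to vary like the other group. The number of cytosolic genes called higher was then 5 when AAV-ctrl replicate 1 was dropped and 6 when AAV-ctrl replicate 3 was.

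The other 9 cytosolic genes did not pass the test. Their log2 fold changes were 0.16 for Mars1 (methionine), 0.11 for Nars (asparagine), 0.10 for Eprs (glutamate and proline in 1 protein), 0.09 for Iars (isoleucine), 0.09 for Lars (leucine) and 0.07 for Cars. For the subunits of the phenylalanine enzyme they were 0.02 for Farsb and -0.02 for Farsa. Vars, the synthetase of highest level in the controls, had 69.8 and 72.0 FPKM in AAV-IL-27 and 73.7 and 73.0 in AAV-ctrl. Its log2 fold change was 0.00 with a 95% interval of -0.10 to 0.10 (adjusted p = 0.998, edgeR), which leaves out changes of the size seen in Kars, Hars or Gars. The FPKM carry no correction for library composition, while the fold change of the fit does. Among these genes the sign of Cars, Farsa, Farsb, Lars and Vars turned under another scaling or with a library left out.

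By structural group, 4 of 9 class I genes of the cytosolic set rose (median log2 fold change 0.16) and 7 of 10 class II genes did (median 0.24), with Eprs holding a domain of each class. Of the 8 members of the multisynthetase complex 4 rose, Dars, Kars, Qars and Rars, and all 8 had values above 0 (median 0.18). Outside the complex 7 of 12 rose (median 0.23). The scaffold genes were not called, with log2 fold changes of 0.18 for Aimp1 (adjusted p = 0.0616, edgeR), 0.15 for Aimp2 (adjusted p = 0.250) and 0.05 for Eef1e1 (adjusted p = 0.732). Without AAV-IL-27 replicate 3, Aimp1 passed (adjusted p = 0.0457). Leaving out Wars and Aars, the median of the other 18 cytosolic genes was 0.18. Of the 5 genes with a CARE match, Aars, Gars, Tars and Yars rose and Iars did not pass the test, while Kars and Qars, among others, rose with a window that held no match.

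In the mitochondrial set, Mars2 had 213 and 238 counts in AAV-IL-27 and 278 and 289 in AAV-ctrl. Its log2 fold change was -0.31 (SE 0.10, adjusted p = 0.0400, edgeR). Ears2 had 269 and 298 against 362 and 344 counts, a log2 fold change of -0.30 (SE 0.093, adjusted p = 0.0298). Both fell, with each AAV-IL-27 library below each control. Hars2 had 558 and 553 against 664 and 650 counts, a log2 fold change of -0.23 (SE 0.068, adjusted p = 0.0259). Fars2 rose, from 206 and 212 counts in AAV-ctrl to 252 and 259 in AAV-IL-27, a log2 fold change of 0.31 (SE 0.10, adjusted p = 0.0422). Fars2 shares 10.7% of its exon bases with Lyrm4 and Nrn1. Lyrm4 had a log2 fold change of 0.18 (adjusted p = 0.332, edgeR), the direction of Fars2, and Nrn1, at 13 to 57 counts, had -1.77.

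These 4 calls were near the threshold. With AAV-ctrl replicate 1 left out, the adjusted p was 0.141 for Mars2, 0.193 for Ears2, 0.145 for Hars2 and 0.216 for Fars2 (edgeR). With AAV-ctrl replicate 3 left out, it was 0.223, 0.112, 0.111 and 0.158 in the same order. Without AAV-IL-27 replicate 1 it was 0.130, 0.108, 0.0543 and 0.0606, and without AAV-IL-27 replicate 3 the calls of Hars2 (0.0660) and Fars2 (0.0866) were lost. Fars2 was also not called with the replicate number as a block (adjusted p = 0.0574). DESeq2 called none of the 4.

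The remaining 12 mitochondrial genes did not pass the test. Nars2 (log2 fold change -0.30, adjusted p = 0.0870, edgeR) and Aars2 (-0.28, adjusted p = 0.0850) came closest by size, followed by Pars2 (-0.24) and Vars2 (-0.15). Aars2, Nars2 and Vars2 were each called lower under 3 of the 4 other scalings tried, and Aars2 also without AAV-IL-27 replicate 1 (adjusted p = 0.0328). Cars2 had -0.10, Lars2 -0.03, Rars2 -0.02, Iars2 -0.00, Tars2 0.03, Yars2 0.09 and Sars2 0.11. Standard errors ran from 0.058 to 0.15 in the mitochondrial set and from 0.046 to 0.10 in the cytosolic set, so the ranges overlapped. By class, 2 of 9 class I genes fell and none rose, and of 7 class II genes 1 fell and 1 rose.

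Set against the gene for the same amino acid, the cytosolic member had the higher log2 fold change in 15 of 16 pairs, by a median of 0.28 on the log2 scale. The exception was phenylalanine, where Farsa had -0.02 and Fars2 0.31. Eprs enters as the counterpart of both Ears2 and Pars2, so the pairs are not independent. For histidine the ratio of Hars to Hars2 was 2.34 and 2.26 in AAV-IL-27 and 1.56 and 1.503 in AAV-ctrl. Hars and Hars2 lie head to head on chromosome 18 and share 195 exon bases, and they were called in opposite directions.

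**Figure D3:**
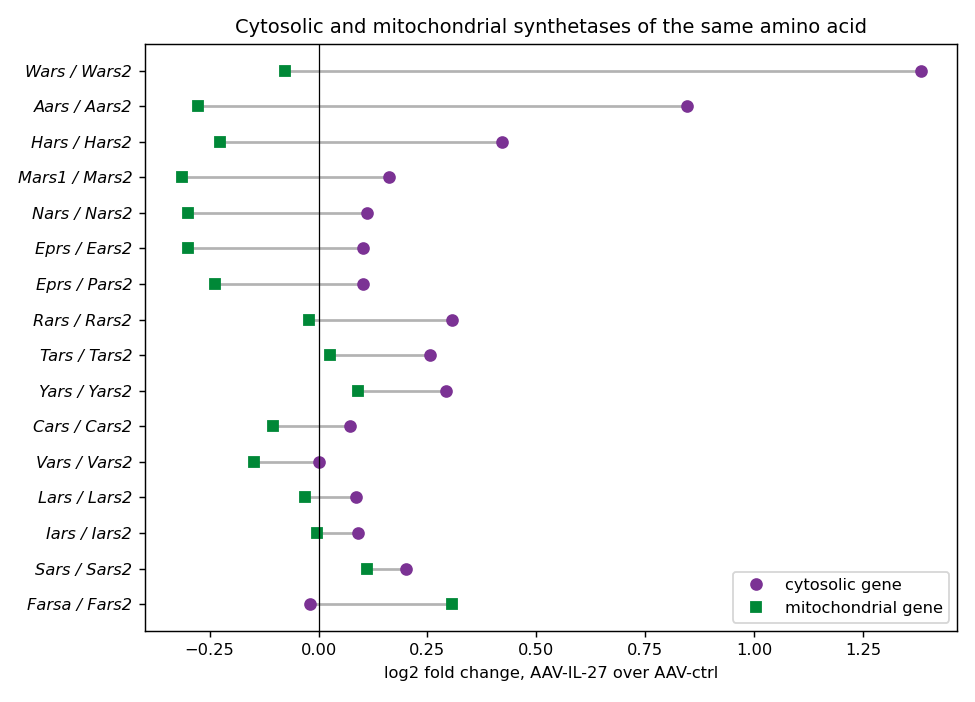
Log2 fold change (horizontal axis) of the cytosolic gene (purple circle) and the mitochondrial gene (green square) for each of 16 pairs that serve the same amino acid, joined by a line and ordered by their difference. The cytosolic gene lies to the right in 15 pairs, with the widest gaps for Wars and Wars2 (1.46) and Aars and Aars2 (1.12), and to the left for Farsa and Fars2.

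The neighbouring pathways give the setting of these values, and their counts are to be read against the 21.3% of all genes called higher and the 17.7% called lower. Of 33 tested genes of the integrated stress response and ATF4 target list, 10 were higher and 2 lower, with a median log2 fold change of 0.13. By p, the first of the rises were the serine and one-carbon enzymes Mthfd2, Psat1 and Phgdh. Their log2 fold changes were 1.08 (adjusted p = 6.29e-06, edgeR), 0.92 (adjusted p = 1.92e-05) and 0.45 (adjusted p = 0.000423). By size Chac1 (2.98) and Asns (1.51), both with group means below 2 FPKM, stood first. The falls were Pck2 (-0.70, adjusted p = 0.0373) and Cebpg (-0.30, adjusted p = 0.0191), both lost without either control library. With AAV-ctrl replicate 1 dropped the list had 6 higher and 0 lower, and with AAV-ctrl replicate 3 dropped 8 higher and 0 lower. Atf4 itself, looked up after the other values were seen, had 146 and 137 FPKM in AAV-IL-27 and 149 and 147 in AAV-ctrl, with a log2 fold change of -0.00 (adjusted p = 0.971). ATF4 is known to be controlled largely at translation, which these counts do not measure. Of 4 kinases that start the response, Eif2ak2, the double-stranded RNA sensor PKR, rose (0.58, adjusted p = 0.000116) and Eif2ak3, the endoplasmic reticulum sensor PERK, fell (-0.40, adjusted p = 0.00125).

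Of 22 interferon-gamma-inducible genes 21 rose, with a median log2 fold change of 1.15, among them the GTPases Iigp1 (4.62), Igtp (2.59) and Gbp2 (2.37). Wars, a textbook member of that group, was counted here only among the synthetases. All 18 cell cycle genes rose, with a median of 1.81. Of 15 MYC and growth genes 5 rose and 1 fell. The rises included Odc1 (0.61), the first enzyme of polyamine synthesis, and the nucleolar genes Ncl (0.24) and Nop58 (0.21), and Rptor, a subunit of mTORC1, fell (-0.36). Ncl was lost without AAV-ctrl replicate 1 and Nop58 without either control library, and 1 gene of this list rose with AAV-ctrl replicate 1 dropped and 2 with AAV-ctrl replicate 3 dropped.

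Of 38 genes of tRNA processing and modification, 2 rose, the tRNA ligase Rtcb (0.28) and the deaminase subunit Adat2 (0.52), and 7 fell, among them Qtrt1 (-0.45), Wdr4 (-0.43) and Dus3l (-0.29). Their median was -0.14. The 7 of 38 lower lie near the 17.7% of all genes called lower, and the 2 higher lie below the 21.3% called higher. The number that fell was 15 under upper-quartile and library-size scaling, 16 under T cell marker scaling, 1 by DESeq2, 3 with AAV-ctrl replicate 1 dropped and 2 with AAV-ctrl replicate 3 dropped. Adat2 was lost without AAV-IL-27 replicate 1 or either control library, Qtrt1 without AAV-ctrl replicate 1 and Dus3l without AAV-ctrl replicate 3. Of 9 cytosolic elongation and release factors 2 rose, the release factor Etf1 (0.42) and Eif5a (0.29). Of 23 genes listed as mitochondrial translation and tRNA factors 2 rose, the elongation factors Tufm (0.24) and Gfm1 (0.21). In the same list 3 fell, Gfm2 (-0.20), Trmt10c (-0.29) and Pstk (-0.33), and the median was -0.02. Pstk, a kinase acting on the selenocysteine tRNA, is not itself a mitochondrial translation gene. None of the 23 was called without either control library or by DESeq2. None of 5 proofreading and synthetase-like genes was called by edgeR.

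Transcripts of other cell types differed between the groups. The T cell markers summed to between 3396 and 3876 FPKM in all 4 libraries, with 0 of 17 at 0 and 9 higher and 2 lower (4 and 5 higher and none lower without AAV-ctrl replicate 1 or 3). Cd8a had 321 to 408 FPKM and Cd4 8.21 to 10.1. The 18 neutrophil markers summed to 1061 and 1738 FPKM in AAV-IL-27 and 42.5 and 32.1 in AAV-ctrl, with 16 higher, and Ly6g, Prtn3, Fcnb and Cebpe were at 0 in 1 control library each. Without AAV-ctrl replicate 1 or 3, 9 and 7 neutrophil markers were called higher. The 10 plasma cell markers summed to 400.4 and 781 FPKM against 262 and 307, with 4 higher (9 and 6 with AAV-IL-27 replicate 1 or 3 dropped, and 2 without either control). The 10 B cell markers summed to 936 and 1298 against 2023 and 1778, with 4 lower (9 and 10 without AAV-IL-27 replicate 1 or 3). The 10 NK cell markers summed to 875 and 831 against 526 and 526, with 4 higher and 6 lower and a median log2 fold change of -2.09. Nkg7, a granule gene that cytotoxic T cells also express, made up much of that sum, with means of 599.7 against 257 FPKM, while the receptor genes Ncr1, Klrb1c, Klra8, Klra4, Klra7 and Klre1 fell, with log2 fold changes from -1.98 (Klre1) to -3.59 (Klra8). The 16 macrophage and dendritic cell markers summed to 325 and 345 against 319 and 297, with 2 higher and 6 lower (6 and 7 higher with AAV-IL-27 replicate 1 or 3 dropped, 1 higher without either control and 5 by DESeq2), and the erythroid markers to 49.1 and 84.9 against 110.4 and 63.0.

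The part of these other cells in the synthetase values was not tested. The AAV-IL-27 libraries differed from each other in neutrophil, plasma cell and B cell markers, replicate 3 being the higher in each. In T cell markers replicate 1 was the higher. For replicates 1 and 3 in turn, Wars was at 62.3 and 61.6 FPKM, Aars at 32.7 and 32.2 and Kars at 76.9 and 77.9. Rars and Yars were higher in replicate 3, at 42.2 against 37.9 and 17.4 against 15.7 FPKM. An alternative scaling used the geometric mean of the T cell markers, each taken as a share of the markers' own sum. A change common to all the markers is not removed this way, and 5 of 17 were still called higher and 2 lower. Under this scaling 8 cytosolic genes were called higher, Wars, Aars, Kars, Hars and Gars among them. The calls of Dars (adjusted p = 0.0631, edgeR), Qars (0.110) and Sars (0.141) were lost. The median of the cytosolic set was then 0.11 and that of the mitochondrial set -0.18, while the median over all genes moved to -0.09.

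**Figure D4:**
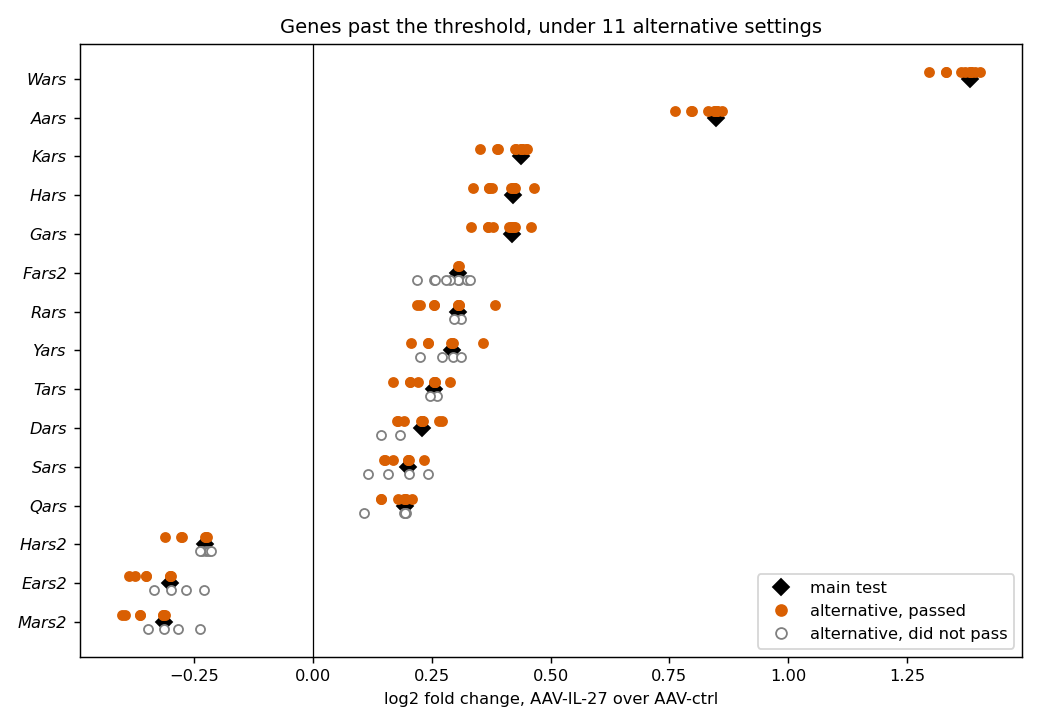
Log2 fold change (horizontal axis) of the 15 synthetase genes past the threshold, in the main test (black diamond) and under 11 alternative settings of scaling, filter, tool, block and left-out library (circles, filled where the gene passed). Wars (1.297 to 1.402) and Aars (0.76 to 0.86) kept their place under each setting and passed in all 11, as Kars, Hars and Gars did, while Fars2 passed in 2 of 11.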

How the data were processed

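Per-gene expected counts, estimated values that need not be whole, were deposited by the authors beside 1 further column per library, which was taken as FPKM. The deposited FPKM columns are not named as such in the file headers. The unit was inferred from the values, whose ratio to the counts moved between libraries as the library totals did (0.9955 and 0.9954 for AAV-IL-27 replicate 3 against 1). The submitters' processing notes name RSEM 1.2.12, HISAT2 2.0.4, DESeq2 1.4.5, Bowtie2 2.2.5 and build GRCm38.p6 without their roles. The sources used here do not say whether reads were assigned by strand, so genes with overlapping exons may share reads. The labels name both poly(A) RNA and a library made by ribosomal RNA removal.

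Counts were rounded and tested with edgeR 4.0.16 in R 4.3.3 (filterByExpr, TMM, robust quasi-likelihood test, two-sided, Benjamini-Hochberg over 12887 of 17039 genes, threshold 0.05). The SE is the size of the log2 fold change divided by the square root of F. The fit was tested on simulated data. Each library is a separate mouse, and precision is limited by their number. Same-group libraries differed beyond sampling noise, with a chi-square over its degrees of freedom of 6.47 (AAV-IL-27) or 2.49 (control virus). The alternatives were RLE, upper-quartile and library-size scaling, no filter, DESeq2 1.42.0, the replicate number as a block, and leaving out each library. A further one was scaling to the T cell markers, each as a share of the markers' own sum. The members and the 17 gene lists were chosen with earlier results of these data known, and no list was given a test. All members were named, with up to 3 called genes of smallest p per direction from each pathway list, all 3 scaffolds, and the 5 genes nearest to Wars. Named outside that rule were Atf4, Chac1, the markers Nkg7, Ncr1, Klrb1c, Klra8, Klra4, Klra7, Klre1, Cd8a, Cd4, Ly6g, Prtn3, Fcnb and Cebpe, and Exosc6, Lyrm4 and Nrn1, whose exons overlap members. Some results are not reported here.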

Additional observations from a re-analysis of the deposited data

How the results depend on the processing

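The calls of Wars, Aars, Kars, Hars and Gars held in all 11 alternatives. By DESeq2 the calls of Qars, Sars and Yars were lost. The number of cytosolic genes called higher, 11, ranged from 5 to 11 with a library left out. The mitochondrial count higher, 1, was 0 under upper-quartile, library-size and T cell marker scaling, DESeq2, the replicate block and each left-out library. The mitochondrial count lower, 3, was 6 under those 3 scalings, 0 by DESeq2 and 0 to 2 with a library left out. Of the pathway lists' genes, 14 were lower, but 27, 27 and 30 under the 3 scalings, 4 by DESeq2 and 4 to 17 with a library left out. Over all genes, 2745 were higher (1646 to 2632 with a library left out) and 2278 lower (3455 under T cell marker scaling, 1212 by DESeq2, 989 to 2254 with a library left out). The cytosolic median of 0.20 was 0.15 under upper-quartile and library-size scaling and 0.11 under T cell marker scaling, and the mitochondrial median of -0.09 was -0.18 under the last. Measured from the median of all genes, they ran from 0.18 to 0.22 and from -0.11 to -0.07 over the alternatives.

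Small values changed sign. In the order upper-quartile, library-size and T cell marker scaling, Farsb had -0.0318, -0.0312 and -0.0671, Vars -0.0504, -0.0499 and -0.0859 (-0.000954 with no filter), and Tars2 -0.0251, -0.0246 and -0.0605. Under T cell marker scaling Cars had -0.0153 and Lars -0.000478. With a library left out the range was -0.0438 to 0.178 for Cars, -0.0698 to 0.0302 for Farsa, -0.0469 to 0.0854 for Farsb, -0.0205 to 0.0209 for Vars, -0.0558 to 0.0453 for Iars2, -0.0863 to 0.0225 for Lars2, -0.124 to 0.0847 for Rars2, -0.0275 to 0.237 for Sars2 and -0.0443 to 0.0965 for Tars2. The causes were not tested. The labels do not say that replicate numbers mark anything shared. Same-numbered libraries did not deviate together (correlation -0.000711 over 12887 genes), which cannot show whether the mice were handled in pairs. With the replicate block 11 cytosolic genes were still higher. With 2 libraries per group, a change of the size of the weaker members lies near what the test can resolve.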

Other observations

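Sars2, the mitochondrial serine enzyme, moved one way in counts and the other in FPKM. Its log2 fold change in counts was 0.11, while the ratio of its mean FPKM was -0.16 on the log2 scale. Dividing counts by FPKM gives the transcript length that the authors' software implied, and for Sars2 the longest of the 4 libraries was 1.28 times the shortest. Among the 20 cytosolic genes that ratio was at most 1.04. The cause was not tested.

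Tarsl2, a threonine enzyme outside the list, had 151 and 148 counts in AAV-IL-27 and 164 and 159 in AAV-ctrl. Its log2 fold change was -0.09 (SE 0.13, adjusted p = 0.601, edgeR), which did not pass the test.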
